A study of Mus musculus with 12 samples.

Results

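The mitochondrial respiratory chain and ATP synthase are described here through the genes that encode their subunits. Members were all probes of a mouse whole-genome array whose single annotated gene symbol starts with Nduf, Uqcr or Atp5, is Sdha, Sdhb, Sdhc, Sdhd or Cyc1, or starts with Cox4, Cox5, Cox6, Cox7 or Cox8. The rule used names only and found 67 probes for 66 genes among the 33012 probes of the array, of which 14411 carry 1 gene symbol. By complex there were 26 probes for complex I, 4 for complex II, 7 for complex III, 12 for complex IV (cytochrome c oxidase) and 13 for complex V (ATP synthase), where Atp5j has more than 1 probe. The name rule also took in 4 assembly factors of complex I (Ndufaf1, Ndufaf4, Ndufaf5 and Ndufaf7), which are not subunits, and 1 pseudogene, Ndufs5-ps.

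The 12 arrays fall into 4 groups of 3. The first is the reprogrammed epiblast ES-like cells (rEpiES) at passage 24, the second is rEpiES at passage 4, the third is cultured epiblast (cEpi) and the last is embryonic stem (ES) cells. Per the labels' protocols, rEpiES lines came from mouse epiblast cells kept in 20% serum and 1000 U/ml LIF on mitomycin-treated embryonic fibroblast feeders, and were picked once cells positive for an Oct4 reporter transgene (Oct4-ΔPE-EGFP) had appeared, after 14 to 35 days. Embryos of E5.5 to E7.5 from 129/Sv or ROSA 129/Sv females and males carrying that transgene are described. How the cEpi cells were cultured is not given, and the serum and LIF levels above are given for rEpiES only, not for ES. The number of independent cultures or lines behind the 3 arrays of a group is not given either. Each p-value therefore measures the spread between arrays, which may be technical.

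Oxidative phosphorylation passes electrons from NADH (complex I) and succinate (complex II) through coenzyme Q, complex III and cytochrome c to oxygen at complex IV, and complex V uses the resulting proton gradient to make ATP. Nearly all subunits are encoded in the nucleus and made in the cytosol, and several have alternative isoforms that differ between tissues, among them the heart and muscle forms Cox7a1 and Cox8b and the testis forms Cox6b2 and Cox7b2. Mouse ES cells respire actively, and epiblast stem cells derived after implantation are known to rely more on glycolysis.

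Values are the authors' quantile-normalised log2 intensities, on which 1 unit is a 2-fold difference. A probe counted as detected at a signal-to-noise score of 3 or more, and the 15235 probes for which some group had all 3 arrays detected were tested with limma, with Benjamini-Hochberg adjustment over all of them. Of the 67 members, 65 were tested and 63 were detected on all 12 arrays. Those not tested were Cox8b, detected on no array (7.86 to 9.40 on the log2 scale across all arrays), and Ndufaf5, detected on 2 of 3 passage 24 arrays, 1 passage 4 array, 1 cEpi array and no ES array. The members are bright: the median level of the tested members over all arrays was 16.52, above 92% of the tested probes, whose median was 12.44.

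Several properties of the arrays bear on every result. The files come in 2 layouts, one shared by cEpi and passage 4 and the other by ES and passage 24, so in the 4 comparisons across them layout and group cannot be told apart; only passage 4 against cEpi and passage 24 against ES lie within a layout. ES arrays varied most between replicates. The median SD of a tested member was 0.07 at passage 24, 0.05 at passage 4, 0.06 in cEpi and 0.24 in ES. Over all tested probes it was 0.11, 0.10, 0.09 and 0.24 in that order. The fit takes 1 spread per probe from all groups together. The SEs and p-values of comparisons without ES therefore include the ES spread, and those with ES average it with the smaller spread of the other groups. ES replicate 3 was the lowest of the ES arrays for 43 of 65 members, against 31.1% of all tested probes. Its median difference from the mean of the other ES arrays was -0.21 over the members and 0.06 over all tested probes. Probes detected per array ran from 14422 to 15637 at passage 24, 14329 to 15034 at passage 4, 15726 to 16537 in cEpi and 12061 to 13827 in ES. Markers of embryonic fibroblasts, the feeder cell type, moved with cEpi: 19 of 20 tested were higher in cEpi than in ES, and the log2 of their summed level over 21 probes was 18.98 to 19.06 at passage 24, 19.92 to 19.95 at passage 4, 21.56 to 21.60 in cEpi and 19.48 to 20.01 in ES. Every one of those 21 probes was detected in cEpi on at least 1 array, and Fap was detected on no passage 24, passage 4 or ES array. Endoderm markers (6 of 8 tested) and trophoblast markers (6 of 9 tested) were also higher in cEpi than in ES. All 13 naive pluripotency markers tested were lower. Post-implantation epiblast markers were mixed in the same comparison, with 5 of 10 tested higher and 4 lower (median change 0.23). The log2 of their summed level was 19.95 to 19.96 in cEpi and 19.71 to 19.93 in ES. These marker counts stand against a background of 36.6% higher and 29.6% lower over the 15235 tested. The part of other cells in the results was not tested, and in bulk RNA fewer cells of a type cannot be told apart from less RNA per cell.

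The scaling of the arrays sets the level around which members are called. Median scaling of the deposited intensity moved the median of all probes by 0.54 for cEpi minus ES, -0.23 and -0.19 for passage 4 and passage 24 minus cEpi, 0.30 and 0.33 for passage 4 and passage 24 minus ES, and 0.04 between the passages. Without further normalisation the shifts were 0.67, -0.44, -0.38, 0.23, 0.27 and 0.05 in the same order. Counts of higher and lower members are therefore given with their values under the other scalings, and medians are read against the median of all tested probes.

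In cEpi against ES, 34 of 65 members were higher and 14 lower, where 66.2% of all tested probes were called, 36.6% higher and 29.6% lower. The members' median change was 0.30 on the log2 scale, against 0.15 for all tested probes. Without ES replicate 3, 30 members were higher and 20 lower, and their median stood 0.07 above that of all probes. The split of higher and lower members was 46 and 4 with median scaling and 49 and 3 without further normalisation, and the members' median then stood 0.08 above that of all probes under both, against 0.15 in the quantile-normalised values. Changes were mostly small: 56.9% of members moved by less than 0.5, against 37.8% of all tested probes. The members are brighter than most tested probes, and such shares, here and below, are not matched for level.

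In rEpiES at passage 4 against cEpi, 23 members were higher and 6 lower, with 56.3% of all tested probes called (28.2% higher, 28.1% lower). The median was 0.09 against -0.02 for all probes, and 86.2% of members moved by less than 0.5, against 48.0% of all probes. The direction of this split depended on the scaling, since 6 were higher and 14 lower with median scaling, and 3 and 29 without further normalisation. Relative to the median of all probes the members stood 0.11 higher in the quantile-normalised values and 0.19 higher under either other scaling.

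In rEpiES at passage 24 against cEpi, 16 members were higher and 19 lower, or 16 and 17 without Sdhb and Ndufb8, with 66.2% of all tested probes called (33.3% higher, 32.9% lower). The split was 9 and 20 with median scaling and 5 and 30 without further normalisation. The median was -0.02 against 0.01 for all tested probes.

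Against ES, rEpiES had 32 members higher and 11 lower at passage 4 (55.3% of all probes called, 29.3% higher and 26% lower). The median was 0.25 against 0.05 for all probes. At passage 24 there were 26 higher and 14 lower, or 26 and 12 without Sdhb and Ndufb8 (59.7% called, 30.6% higher and 29% lower), and the median was 0.19 against 0.04. Median scaling gave 41 higher and 3 lower at passage 4, and 41 and 8 at passage 24. Without further normalisation these were 38 and 3 at passage 4, and 37 and 8 at passage 24. Without ES replicate 3, 28 were higher and 17 lower at passage 4, and 25 and 23 at passage 24. The members' median then stood 0.09 and 0.07 above that of all probes, in that order.

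Between the passages fewer members were called than in any of the other 5 comparisons. At passage 24 against passage 4, 6 were higher and 16 lower, or 6 and 14 without Sdhb and Ndufb8, with 36.1% of all tested probes called (17.2% higher, 18.9% lower). The median was -0.12 against 0.01 for all probes, and 86.2% of members moved by less than 0.5, against 66.3% of all probes. Without further normalisation 3 were higher and 5 lower, and without ES replicate 3, 8 were higher and 29 lower. The 6 comparisons share groups, so their counts are not independent.

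**Figure D1:**
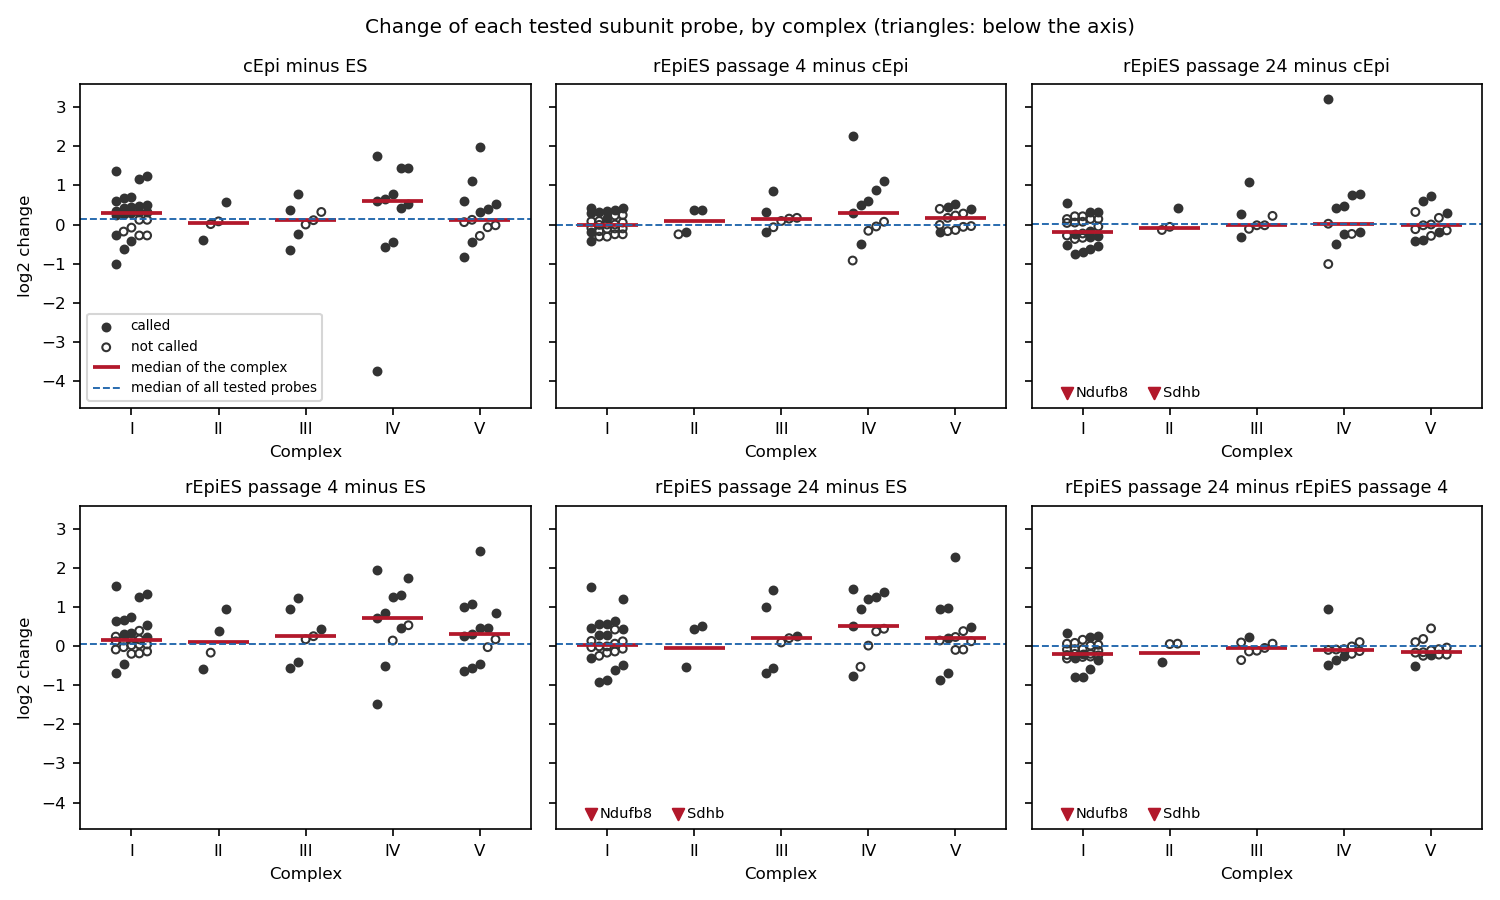
Log2 change (vertical axis) of each tested subunit probe by complex (horizontal axis) in the 6 comparisons. Filled points were called at an adjusted p under 0.05, open points were not, red lines are medians of a complex and the dashed line is the median of all tested probes. Complex IV stands highest against ES (median 0.61 in cEpi), and Sdhb and Ndufb8 lie below the axis at passage 24.

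Complex IV had the largest median change of the complexes in each comparison with ES. All 11 tested subunits were called in cEpi against ES, 8 higher and 3 lower, with a median of 0.61, where 66.2% of all tested probes were called. At passage 4 against ES 7 were higher and 2 lower (median 0.72, 81.8% called against 55.3% of all probes), and at passage 24 against ES 6 were higher and 1 lower (median 0.52, 63.6% against 59.7%). Under both other scalings 8 were higher and 1 lower in each of these 3 comparisons. The complex IV median stood above that of all probes by 0.47 in cEpi, 0.67 at passage 4 and 0.48 at passage 24, and with median scaling or no further normalisation by 0.34 in cEpi, 0.62 at passage 4 and 0.52 at passage 24. Without ES replicate 3 it stood above by 0.39 in cEpi, 0.62 at passage 4 and 0.43 at passage 24.

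Among the widely expressed complex IV subunits, Cox5b, which binds zinc, showed the largest difference from ES. Its log2 values were 16.08, 16.04 and 16.25 at passage 24, 16.70, 16.60 and 16.54 at passage 4, 16.07, 16.09 and 16.16 in cEpi, and 14.69, 14.44 and 14.88 in ES. The ES arrays lay apart from all others. Cox5b was 2.73-fold higher at passage 24 (log2 1.45, SE 0.11, adjusted p = 2.20e-06), 3.84-fold higher at passage 4 (1.94, SE 0.11, adjusted p = 6.33e-07) and 2.71-fold higher in cEpi (1.44, SE 0.11, adjusted p = 1.64e-06) than in ES. It was also 0.51 higher at passage 4 than in cEpi (adjusted p = 0.00277) and 0.49 lower at passage 24 than at passage 4 (log2 -0.49, adjusted p = 0.00607), calls that were lost under median scaling and without further normalisation.

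Its partner subunit Cox5a differed less. It averaged 18.06 at passage 24, 18.19 at passage 4, 17.60 in cEpi and 18.05 in ES, and cEpi was the low group. Cox5a fell by 0.45 in cEpi against ES (adjusted p = 0.0113) and was 0.59 higher at passage 4 and 0.46 higher at passage 24 than in cEpi (adjusted p = 0.00304 and 0.00951). Its change between cEpi and ES turned to 0.09 without further normalisation.

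Cox4i1, the widely expressed form of the largest nuclear-encoded subunit, measured 18.24, 18.21 and 18.26 at passage 24, 18.16, 18.13 and 18.12 at passage 4, 17.78, 17.83 and 17.89 in cEpi, and 17.26, 17.20 and 17.43 in ES. The rEpiES arrays were highest, cEpi intermediate and ES lowest, with no overlap between these 3 sets. The rises over ES were 0.94 at passage 24, 0.84 at passage 4 and 0.53 in cEpi (adjusted p = 2.09e-06, 6.84e-06 and 8.16e-05). Its alternative isoform Cox4i2, known from lung and induced by low oxygen, was dim, at 9.78, 9.97 and 9.05 at passage 24, 9.91, 9.15 and 10.01 at passage 4, 10.82, 10.57 and 10.45 in cEpi, and 9.53, 10.32 and 7.64 in ES, where only 1 of 3 arrays detected it. All cEpi arrays were above all ES arrays, by 1.45 on average (SE 0.58, adjusted p = 0.0494). The difference was 0.69 and no longer called without ES replicate 3 (adjusted p = 0.122), and the call was kept in 5 of 20 alternative settings.

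Cox7c rose over ES in the 3 other groups and over cEpi in both rEpiES groups. It averaged 18.54 ± 0.04 at passage 24, 18.64 ± 0.06 at passage 4, 17.77 ± 0.07 in cEpi and 17.36 ± 0.30 in ES (SD, n = 3 each). The changes against cEpi were 0.77 at passage 24 and 0.87 at passage 4 (SE 0.13 each, adjusted p = 0.000454 and 0.000274), and the changes against ES were 1.19 at passage 24, 1.29 at passage 4 and 0.42 in cEpi (adjusted p = 2.95e-05, 2.33e-05 and 0.0165). Cox8a, the widely expressed form of subunit VIII, was 0.61 higher in cEpi than in ES (adjusted p = 0.00779) and 0.45 higher at passage 4 than in ES (adjusted p = 0.0389, a call kept in 9 of 21 alternative settings), and 0.37 above ES at passage 24 without being called (adjusted p = 0.0764).

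The tissue-restricted isoforms moved in different ways. Cox7a1, the heart and muscle form of subunit VIIa, had 13.81, 13.65 and 13.60 at passage 24, 13.61, 13.63 and 13.85 at passage 4, 14.20, 14.12 and 14.22 in cEpi, and 12.71, 12.45 and 12.16 in ES. The cEpi arrays were highest and the ES arrays lowest. It was 3.34-fold higher in cEpi than in ES (log2 1.74, SE 0.13, adjusted p = 1.70e-06), fell by 0.49 against cEpi at both passage 24 and passage 4 (adjusted p = 0.00779 and 0.0103) and stayed 1.25 above ES in both (adjusted p = 2.44e-05 and 3.18e-05). Of 10 tested markers of cardiac and skeletal muscle, 6 were higher and 1 lower in cEpi than in ES. The log2 of their summed level over 15 probes was 14.42 to 14.54 at passage 24, 15.40 to 15.49 at passage 4, 15.77 to 15.87 in cEpi and 15.29 to 15.41 in ES, and the part of such cells in the Cox7a1 values was not tested.

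Cox7b2, the testis form of subunit VIIb, was the only member detected in some groups and on no array of another, Ndufaf5 aside. It had log2 values of 11.04, 11.52 and 11.27 at passage 24, 10.41, 10.30 and 10.28 at passage 4, 7.83, 8.58 and 7.80 in cEpi, and 11.69, 11.51 and 12.22 in ES. The cEpi arrays lay below all others and were not above background, so the fold is a bound, set with the lowest detected signal of each cEpi array or the probe's own value, whichever was higher. Cox7b2 was at least 9.21-fold higher at passage 24 than in cEpi (adjusted p = 1.37e-06) and at least 4.77-fold higher at passage 4 than in cEpi (adjusted p = 2.76e-05), and it was at least 13.3-fold lower in cEpi than in ES (adjusted p = 5.47e-07). At passage 4 it fell by 1.48 against ES (adjusted p = 0.000546), at passage 24 it stood 0.53 below ES without being called (log2 -0.53, adjusted p = 0.0825), and passage 24 was 0.95 above passage 4 (adjusted p = 0.0121). The ubiquitous Cox7b was lower than in ES by the fitted changes of -0.77 at passage 24, -0.51 at passage 4 and -0.58 in cEpi (adjusted p = 8.09e-06, 0.000179 and 4.65e-05). The calls at passage 4 and in cEpi were lost under median scaling and without further normalisation.

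Cox6b2, the testis form of subunit VIb, was highest in rEpiES. Its values were 14.81, 14.72 and 14.96 at passage 24, 15.16, 15.25 and 15.13 at passage 4, 13.95, 14.24 and 14.06 in cEpi, and 13.45, 13.66 and 13.23 in ES, so that the 4 groups did not overlap. It rose by 0.75 at passage 24 and 1.10 at passage 4 over cEpi (SE 0.12 each, adjusted p = 0.000319 and 3.25e-05), and by 1.39 at passage 24, 1.73 at passage 4 and 0.64 in cEpi over ES (adjusted p = 5.84e-06, 2.14e-06 and 0.000985). The passage 24 value was 0.35 below passage 4 (log2 -0.35, adjusted p = 0.0469), a call kept in 8 of 21 alternative settings. The somatic Cox6b1 was 0.52 higher at passage 24, 0.72 at passage 4 and 0.77 in cEpi than in ES (adjusted p = 0.000218, 3.01e-05 and 1.05e-05).

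**Figure D2:**
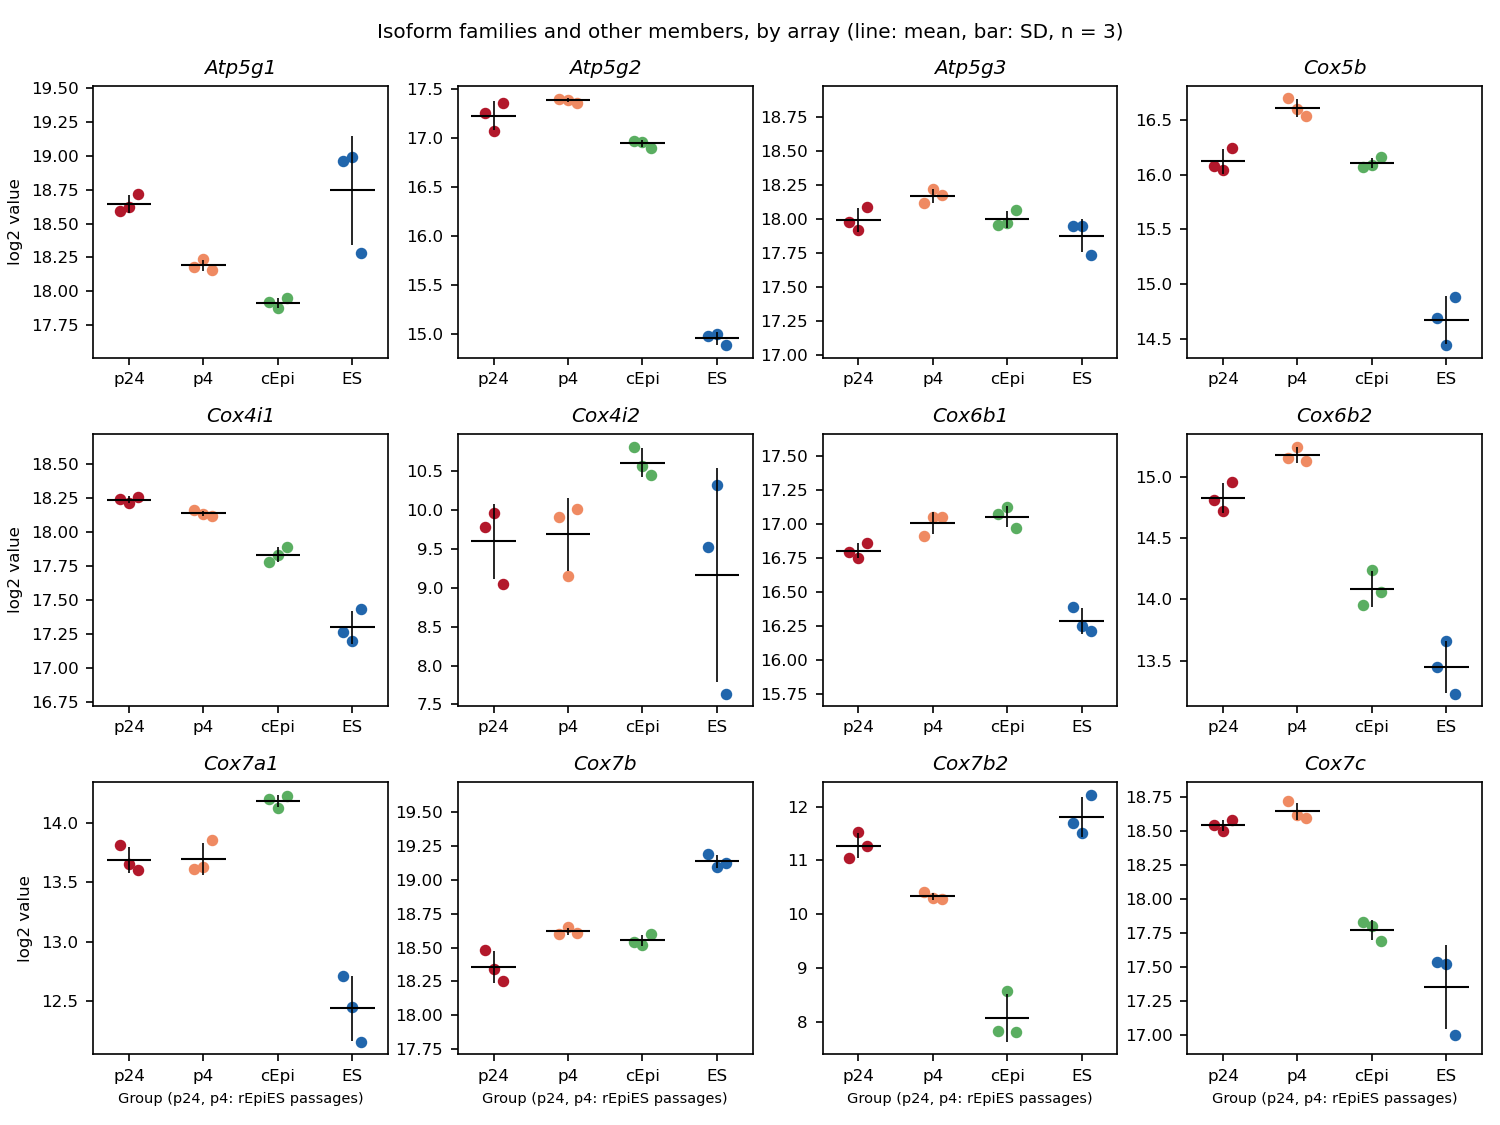
Log2 values (vertical axis, each panel on its own range of at least 2 units) of complex IV members and the Atp5g genes on each array, for rEpiES passage 24 (p24), rEpiES passage 4 (p4), cEpi and ES. Points are arrays, lines are means and bars are the SD of 3 arrays. Cox7b2 is lowest in cEpi (mean 8.07), and Atp5g2 and Cox5b are lowest in ES (means 14.95 and 14.67).

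In complex V the clearest difference lay in the genes for subunit c, the ring that rotates in the membrane. Atp5g1, Atp5g2 and Atp5g3 encode the same mature protein behind different mitochondrial import leaders. Atp5g2 had 17.25, 17.07 and 17.36 at passage 24, 17.40, 17.39 and 17.36 at passage 4, 16.97, 16.96 and 16.90 in cEpi, and 14.97, 15.00 and 14.88 in ES. The ES arrays were lowest by a wide margin and close to each other. The gene was 4.84-fold higher at passage 24 (log2 2.28, SE 0.08, adjusted p = 1.64e-08), 5.41-fold higher at passage 4 (2.43, SE 0.08, adjusted p = 2.35e-08) and 3.97-fold higher in cEpi (1.99, SE 0.08, adjusted p = 2.27e-08) than in ES, and all 3 calls held in every alternative setting run.

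Atp5g1 went the other way in part of the comparisons. It had 18.59, 18.62 and 18.72 at passage 24, 18.18, 18.24 and 18.16 at passage 4, 17.92, 17.88 and 17.95 in cEpi, and 18.96, 18.99 and 18.28 in ES. The cEpi arrays were lowest, and ES replicate 3 lay well below its fellows. The fall in cEpi against ES was 0.82 (log2 -0.82, SE 0.16, adjusted p = 0.00125), a call lost without further normalisation, and passage 24 was 0.73 above cEpi (adjusted p = 0.00263). At passage 4 Atp5g1 was 0.55 lower than in ES (log2 -0.55, adjusted p = 0.0158), a call kept in 16 of 21 alternative settings. Atp5g3 varied little, with means of 18.00 at passage 24, 18.17 at passage 4, 18.00 in cEpi and 17.88 in ES, and was called only at passage 4 against ES (0.30, adjusted p = 0.00979).

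Atp5pb, subunit b of the peripheral stalk, was lower than in ES by the fitted changes of -0.87 at passage 24, -0.64 at passage 4 and -0.45 in cEpi (adjusted p = 2.19e-06, 2.59e-05 and 0.000168). It had 17.12, 17.12 and 17.05 at passage 24, 17.31, 17.36 and 17.32 at passage 4, 17.49, 17.43 and 17.64 in cEpi, and 17.96, 17.97 and 17.97 in ES, 4 groups without overlap. The cEpi change became 0.11 without further normalisation. The probes of Atp5j, coupling factor F6 of the same stalk, disagreed at passage 4 against ES: the brighter one (mean 17.41 at passage 4 and 17.87 in ES) fell by 0.46 (adjusted p = 0.0176), and the dimmer one (mean 12.16 at passage 4 and 11.71 in ES) rose by 0.45 (adjusted p = 0.00816), so no direction is given for this gene. Complex V as a whole had 6 members higher and 2 lower in cEpi against ES, 8 and 3 at passage 4 against ES, and 5 and 2 at passage 24 against ES, of 13 probes. The called shares were 53.8% at passage 24, 84.6% at passage 4 and 61.5% in cEpi, where 59.7%, 55.3% and 66.2% of all probes were called. With median scaling the splits were 8 and 2 at passage 24, 9 and 1 at passage 4 and 9 and 1 in cEpi, and without further normalisation 8 and 2, 9 and 1, and 9 and 0. Its medians in these comparisons were 0.12 in cEpi, 0.30 at passage 4 and 0.21 at passage 24, and relative to all probes -0.02, 0.24 and 0.18 in that order, with -0.16, 0.26 and 0.23 under the other scalings.

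In the quantile-normalised values complex III had 3 of 7 members higher and 2 lower than in ES at both passage 24 and passage 4, and 2 higher and 2 lower in cEpi. The lower calls depended on the scaling: with median scaling 5 were higher and 0 lower than in ES at passage 24, at passage 4 and in cEpi, and without further normalisation 5, 4 and 5 were higher and 0 lower. The called shares were 71.4% at both passages and 57.1% in cEpi, where 59.7%, 55.3% and 66.2% of all probes were called at passage 24, at passage 4 and in cEpi. Uqcrc1, a core subunit facing the matrix, had 16.57, 16.48 and 16.69 at passage 24, 16.45, 16.37 and 16.28 at passage 4, 15.46, 15.54 and 15.50 in cEpi, and 15.08, 15.14 and 15.22 in ES. The groups did not overlap and the rEpiES arrays were highest. Uqcrc1 was 1.08 higher at passage 24 and 0.86 higher at passage 4 than in cEpi (SE 0.08 each, adjusted p = 8.21e-07 and 7.17e-06), and 1.44, 1.22 and 0.36 higher at passage 24, at passage 4 and in cEpi than in ES (adjusted p = 2.22e-07, 1.14e-06 and 0.00212). The difference between the passages was 0.22 (adjusted p = 0.0478) and was called in 7 of 21 alternative settings. Uqcrfs1, the Rieske iron-sulphur protein, averaged 17.18 ± 0.05 at passage 24, 17.32 ± 0.04 at passage 4, 17.51 ± 0.05 in cEpi and 17.74 ± 0.05 in ES (SD, n = 3 each), the reverse order. Its changes against ES were -0.56 at passage 24, -0.42 at passage 4 and -0.23 in cEpi (adjusted p = 2.28e-05, 0.000216 and 0.00684). The first 2 calls were lost, and the third turned to 0.22 and 0.35, under median scaling and without further normalisation. Cyc1, which carries the haem that reduces cytochrome c, was 0.26 higher at passage 24 than in cEpi and than in ES (adjusted p = 0.0175 and 0.0186). Each of these calls was kept in 15 of 21 alternative settings, and the first turned to -0.005 without further normalisation. Its change in cEpi against ES was 0.00 (adjusted p = 0.974). The other 4 tested subunits of complex III lay between -0.66 and 0.79 in cEpi against ES.

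The promoters of Atp5g2 and Uqcrc1 are shown because both genes were higher than in ES in the 3 other groups and both hold a motif of NRF1, a factor known to bind promoters of respiratory chain genes. Promoter windows of 300 bases (250 before and 50 after the start, RefSeq, GRCm38.p6) were at hand for 55 of the 66 genes, 59 windows in all. The NRF1 letters GCGCATGCG, searched on both strands, were in 6 of the 59 windows (10.2%), those of Ndufa8, Uqcr11, Uqcrc1, Atp5g2, Ndufaf4 and Ndufaf5, and in 1.75% of all 32851 windows. The letters CCGGAAGT, an ETS motif of the kind GABPA binds, were in 3 windows (5.08%), those of Ndufs3, Uqcr11 and Cox8a, against 3.89% of all. Both windows below are 5′ to 3′ on the gene's strand, and capitals mark the NRF1 motif, which matches on both strands so that 2 matches overlap. The first lies at chr15:102670998-102671297 (minus strand) and the second at chr9:108936398-108936697 (plus strand).
Atp5g2: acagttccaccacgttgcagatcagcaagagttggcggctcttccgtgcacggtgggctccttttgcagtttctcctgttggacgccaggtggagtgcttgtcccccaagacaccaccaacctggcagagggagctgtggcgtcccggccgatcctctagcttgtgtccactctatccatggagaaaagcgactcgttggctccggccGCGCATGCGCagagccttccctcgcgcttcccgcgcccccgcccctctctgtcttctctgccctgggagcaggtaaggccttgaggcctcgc
Uqcrc1: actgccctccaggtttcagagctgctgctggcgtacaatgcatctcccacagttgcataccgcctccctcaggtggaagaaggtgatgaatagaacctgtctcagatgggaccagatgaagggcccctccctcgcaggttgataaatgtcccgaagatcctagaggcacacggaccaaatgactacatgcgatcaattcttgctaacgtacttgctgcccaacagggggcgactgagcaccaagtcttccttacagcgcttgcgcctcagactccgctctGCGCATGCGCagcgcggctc
A match of letters is no evidence of binding. Atp5g2 and Uqcrc1 were picked by their change among the NRF1 motif carriers, which did not all rise over ES. Uqcr11, also above ES in the other groups, averaged 17.08 at passage 24, 17.02 at passage 4, 16.87 in cEpi and 16.08 in ES. In that order Ndufa8 averaged 16.24, 16.44, 16.53 and 16.41, and Ndufaf4 14.87, 15.37, 14.65 and 15.60. Ndufaf5 was not tested. On the arrays the Nrf1 transcript itself averaged 12.76 at passage 24, 12.55 at passage 4, 12.61 in cEpi and 12.71 in ES, and was called in none of the 6 comparisons.

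Complex I, the NADH dehydrogenase, had 16 members higher and 4 lower in cEpi against ES (median 0.30), 10 and 2 at passage 4 against ES (0.16) and 9 and 6 at passage 24 against ES (0.02, or 0.06 with 9 and 5 without Ndufb8). The called shares were 76.9% in cEpi, 46.2% at passage 4 and 57.7% at passage 24, where 66.2%, 55.3% and 59.7% of all probes were called. With median scaling the splits were 19 and 1 in cEpi, 15 and 1 at passage 4 and 16 and 3 at passage 24, and without further normalisation 22 and 1, 14 and 1, and 12 and 3. Without ES replicate 3 they were 13 and 8 in cEpi, 7 and 7 at passage 4 and 8 and 12 at passage 24. The complex I median then stood 0.08, 0.03 and -0.15 from that of all probes, in that order. Against cEpi, passage 4 had 7 higher and 2 lower, which turned to 0 and 6 with median scaling and 0 and 16 without further normalisation, and passage 24 had 3 higher and 10 lower (3 and 9 without Ndufb8), then 1 and 12 and 0 and 15. The called shares were 34.6% at passage 4 and 50% at passage 24, against 56.3% and 66.2% of all probes. All 26 changed by less than 0.5 between passage 4 and cEpi.

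Ndufc2, an accessory subunit of the membrane arm, was 2.85-fold higher at passage 24 (log2 1.51, SE 0.07, adjusted p = 1.00e-07), 2.39-fold higher at passage 4 (1.26, SE 0.07, adjusted p = 5.95e-07) and 2.58-fold higher in cEpi (1.37, SE 0.07, adjusted p = 1.13e-07) than in ES. It measured 15.85, 15.90 and 15.95 at passage 24, 15.74, 15.67 and 15.54 at passage 4, 15.70, 15.81 and 15.76 in cEpi, and 14.33, 14.40 and 14.44 in ES. Ndufa1, a small membrane subunit encoded on the X chromosome, averaged 15.53 ± 0.05 at passage 24, 15.86 ± 0.03 at passage 4, 15.49 ± 0.01 in cEpi and 14.34 ± 0.34 in ES (SD, n = 3 each). For both genes the 3 ES arrays lay below all others. The rises of Ndufa1 over ES were 1.20 at passage 24, 1.52 at passage 4 and 1.15 in cEpi (adjusted p = 4.00e-05, 1.13e-05 and 4.02e-05).

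Ndufb11, another X-linked accessory subunit, separated the passages. It had 13.84, 13.83 and 13.86 at passage 24, 14.60, 14.61 and 14.68 at passage 4, 14.57, 14.58 and 14.47 in cEpi, and 13.34, 13.04 and 13.51 in ES. Passage 24 lay between ES and the other 2 groups. It fell by 0.79 at passage 24 against passage 4 (log2 -0.79, SE 0.10, adjusted p = 0.000334) and by 0.69 against cEpi (log2 -0.69, adjusted p = 0.000225), and rose over ES by 0.55 at passage 24, 1.33 at passage 4 and 1.24 in cEpi (adjusted p = 0.00131, 4.90e-06 and 3.69e-06).

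Ndufa12, an accessory subunit that takes the place of an assembly factor late in assembly, was lowest at passage 24. Its values were 15.26, 15.25 and 15.17 at passage 24, 16.02, 16.05 and 16.01 at passage 4, 15.92, 15.98 and 16.02 in cEpi, and 16.37, 16.43 and 15.68 in ES. The passage 24 arrays were below all others. The changes at passage 24 were -0.80 against passage 4 (SE 0.17, adjusted p = 0.00443), -0.75 against cEpi (adjusted p = 0.00267) and -0.93 against ES (adjusted p = 0.000821). Ndufa6 averaged 16.31 at passage 24, 16.89 at passage 4, 16.65 in cEpi and 16.93 in ES, and fell by 0.58 at passage 24 against passage 4 (log2 -0.58, adjusted p = 0.0278). That call was kept in 14 of 21 alternative settings.

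Ndufa10, an accessory subunit related to nucleoside kinases, was lower than in ES. It measured 16.61, 16.61 and 16.63 at passage 24, 16.82, 16.83 and 16.81 at passage 4, 16.41, 16.62 and 16.39 in cEpi, and 17.52, 17.40 and 17.58 in ES. The ES arrays stood apart at the top. The changes were -0.88 at passage 24, -0.68 at passage 4 and -1.02 in cEpi (SE 0.08 each, adjusted p = 5.67e-06, 4.52e-05 and 1.43e-06). Ndufb7, an accessory subunit on the intermembrane side, was 0.63 lower at passage 24 and 0.43 lower at passage 4 than in cEpi (log2 -0.63 and -0.43, adjusted p = 0.00156 and 0.0165).

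At passage 24 against passage 4, 3 complex I members were higher and 7 lower (38.5% called against 36.1% of all probes). Without Ndufb8 they were 3 and 6 (36% called). With that probe included, the split was 1 and 4 with median scaling and 1 and 3 without further normalisation. The core subunit Ndufv1, which binds NADH, was 0.24 higher and Ndufs7, an iron-sulphur core subunit close to the coenzyme Q site, 0.32 higher at passage 24 than at passage 4 (adjusted p = 0.0236 and 0.0239), and the accessory Ndufc2 was 0.25 higher (adjusted p = 0.0181). Ndufv1 averaged 16.27 at passage 24, 16.03 at passage 4, 15.73 in cEpi and 15.99 in ES, and Ndufs7 16.01, 15.69, 15.79 and 15.44 in the same group order. Another core subunit, Ndufs8, was lower at passage 24 than at passage 4 (log2 -0.36, adjusted p = 0.00703). Calls between the passages were sensitive to the setting: the Ndufv1 call was kept in 13 of 21 alternatives, and the Ndufs7 and Ndufc2 calls in 15 of 21.

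**Figure D3:**
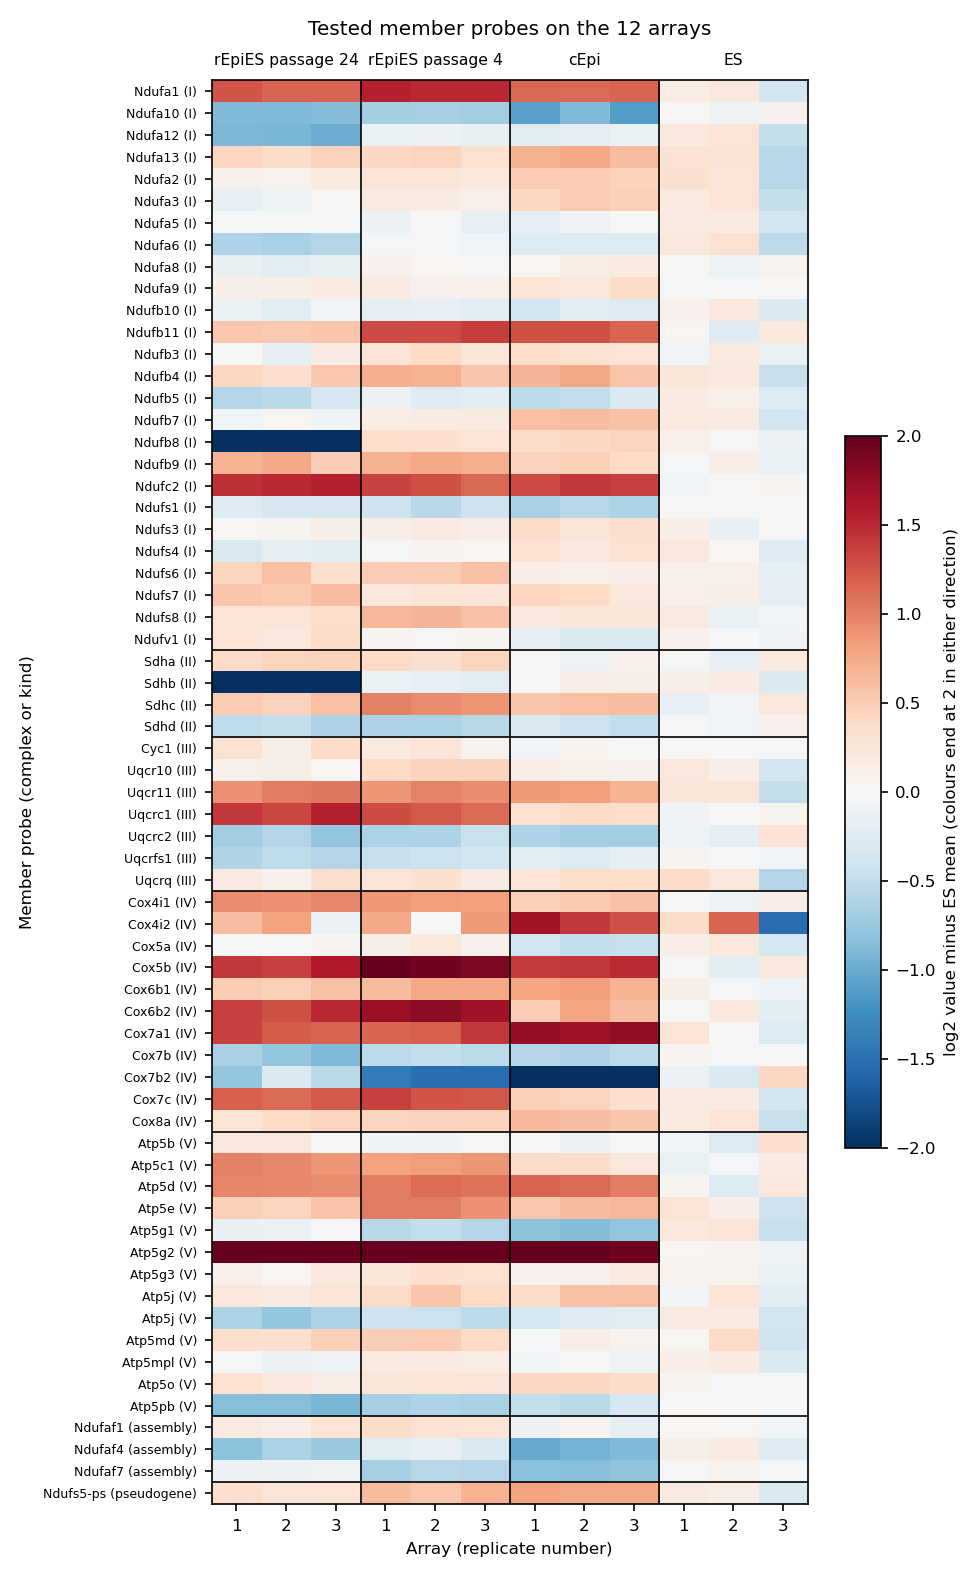
Each row is a tested member probe, labelled with its gene and complex or kind, and each column is an array of rEpiES passage 24, rEpiES passage 4, cEpi or ES. Colour gives the log2 value minus the ES mean of that probe, with the scale ending at 2 in either direction. Atp5g2 and Cox5b are high in the 3 groups left of ES, and Ndufb8 and Sdhb are low on the passage 24 arrays. ES replicate 3 is lowest of the ES arrays for 43 of 65 members, against 31.1% of all tested probes.

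Sdhb and Ndufb8 were singled out because their probes part on the passage 24 arrays alone, so their values there are a description without a test. Sdhb, the iron-sulphur subunit of complex II, had log2 values of 9.95, 10.22 and 10.46 at passage 24, 17.38, 17.36 and 17.29 at passage 4, 17.50, 17.65 and 17.63 in cEpi, and 17.64, 17.68 and 17.23 in ES. Passage 24 was thus 141-fold below passage 4, 167-fold below cEpi and 158-fold below ES. Ndufb8, an accessory subunit of complex I, had 11.36, 11.14 and 10.92 at passage 24, 17.56, 17.55 and 17.48 at passage 4, 17.60, 17.63 and 17.65 in cEpi, and 17.31, 17.23 and 17.09 in ES, which is 83.9-fold below passage 4, 89.6-fold below cEpi and 67.3-fold below ES.

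The gap was in the deposited intensities as well as in the normalised values. The Sdhb signal was 986 to 1384 at passage 24 and at least 164155 on every other array, and the Ndufb8 signal 1885 to 2774 at passage 24 and at least 119572 elsewhere. Both probes still counted as detected at passage 24, with scores of 3.53 to 4.63 for Sdhb and 7.63 to 14.64 for Ndufb8. The quality code was 0 for both on the passage 24 arrays. Each gene has 1 probe here, no other measurement of either transcript was at hand, and whether the transcript or the probe's reading differed was not tested.

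The other complex II members did not share the gap. Sdha, the flavoprotein that forms the catalytic pair with Sdhb, averaged 15.85 ± 0.04 at passage 24, 15.80 ± 0.06 at passage 4, 15.43 ± 0.10 in cEpi and 15.42 ± 0.18 in ES (SD, n = 3 each). It was 0.42 and 0.38 higher at passage 24 and passage 4 than in cEpi (adjusted p = 0.00267 and 0.00667), and the second of these became -0.03 without further normalisation. Sdhc, a membrane anchor, averaged 15.73, 16.15, 15.79 and 15.21 at passage 24, at passage 4, in cEpi and in ES, with rises over ES of 0.52, 0.94 and 0.58 (adjusted p = 0.000987, 2.42e-05 and 0.000387). Sdhd, the other anchor, averaged 17.10, 17.04, 17.24 and 17.64 in that order and stood below ES by fitted changes of -0.54, -0.60 and -0.40 (adjusted p = 9.89e-05, 5.99e-05 and 0.000614). Median scaling turned the Sdhd change in cEpi to 0.05, and leaving the arrays unscaled gave 0.18. The Sdhd calls at passage 24 and at passage 4 against ES were each kept in 19 of 21 alternative settings.

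**Figure D4:**
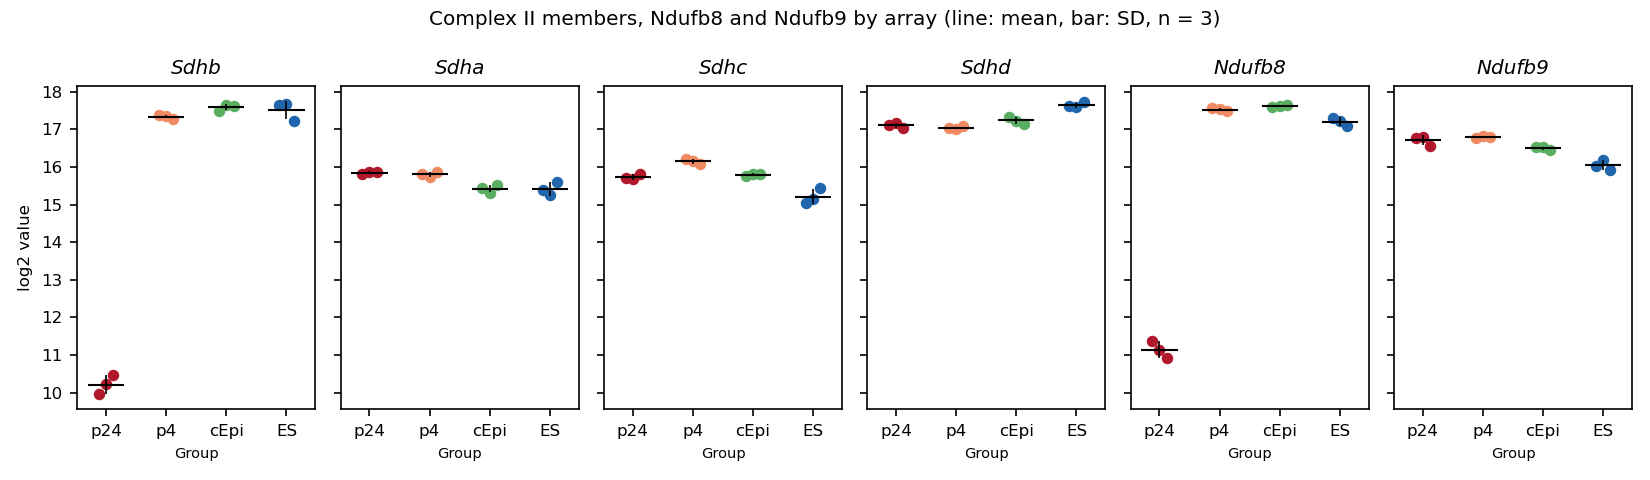
Log2 values (vertical axis, common to all panels) of the complex II members, Ndufb8 and, as a further complex I subunit, Ndufb9 on each array of rEpiES passage 24 (p24), rEpiES passage 4 (p4), cEpi and ES. Points are arrays, lines are means and bars are the SD of 3 arrays. Sdhb and Ndufb8 drop to means of 10.21 and 11.14 at p24, and the other panels show no such gap.

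Of the complex I assembly factors, Ndufaf4 and Ndufaf7 were lowest in cEpi. Ndufaf4 averaged 14.87 ± 0.09 at passage 24, 15.37 ± 0.07 at passage 4, 14.65 ± 0.06 in cEpi and 15.60 ± 0.23 in ES (SD, n = 3 each). It was 0.72 higher at passage 4 than in cEpi, and lower by the fitted changes of -0.95 in cEpi against ES and -0.51 at passage 24 against passage 4 (adjusted p = 0.000303, 3.15e-05 and 0.00534). Ndufaf7, a methyltransferase that acts on a core subunit, averaged 14.78 ± 0.01 at passage 24, 14.29 ± 0.06 at passage 4, 14.06 ± 0.03 in cEpi and 14.89 ± 0.07 in ES (SD, n = 3 each). Its change was -0.83 in cEpi and -0.60 at passage 4 against ES (adjusted p = 1.02e-06 and 1.86e-05), calls lost under median scaling and without further normalisation, and passage 24 was 0.50 above passage 4 (adjusted p = 0.000149). Ndufaf1 was called higher at both passages than in cEpi (0.28 at passage 24 and 0.39 at passage 4). The probe of the pseudogene Ndufs5-ps, which may also bind transcripts of the parent gene, stood 0.29 above ES at passage 24, 0.63 at passage 4 and 0.79 in cEpi, all called. The passage 24 call was lost with group quality weights and without ES replicate 3, where the change was 0.15.

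Genes around the chain were counted in 5 lists, chosen with earlier results known. Their counts stand against 66.2% of all tested probes called at passage 24 against cEpi, 56.3% at passage 4 against cEpi and 66.2% in cEpi against ES. Among 10 tested genes for cytochrome c and carriers, 7 were higher and 3 lower at passage 4 than in cEpi, 7 and 2 at passage 24 than in cEpi, and 3 and 6 in cEpi than in ES. With median scaling these were 6 and 3, 7 and 1, and 3 and 3, and without further normalisation 3 and 3, 7 and 2, and 4 and 3. Their medians stood 0.76, 0.91 and -0.58 from the median of all probes in that order, and 0.78, 1.00 and -0.56 under the other scalings. The testis cytochrome c gene, Cyct, had 12.07, 11.97 and 12.07 at passage 24, 11.66, 11.60 and 11.66 at passage 4, 7.47, 8.37 and 8.22 in cEpi, where no array detected it, and 10.86, 11.24 and 11.22 in ES. Only cEpi lacked a detectable signal, which is the detection pattern of Cox7b2. Cyct was at least 16.1-fold higher at passage 24 and at least 12.2-fold higher at passage 4 than in cEpi (adjusted p = 8.57e-08 and 3.62e-07), and at least 8.41-fold lower in cEpi than in ES (adjusted p = 6.74e-07).

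The germ-cell ADP/ATP carrier Slc25a31 was 2.45 higher at passage 24 and 1.91 higher at passage 4 than in cEpi (SE 0.59 each, adjusted p = 0.00444 and 0.0198), and was detected on all 3 arrays of both passages but on 1 array each of cEpi and ES. The somatic cytochrome c gene, Cycs, averaged 17.80, 17.89, 18.27 and 18.51 at passage 24, at passage 4, in cEpi and in ES. Cycs was thus the lowest in rEpiES, by -0.71 at passage 24 and -0.63 at passage 4 against ES (adjusted p = 9.93e-05 and 0.00029). Dhodh and Gpd2, which pass electrons to coenzyme Q from pyrimidine synthesis and glycerol 3-phosphate, differed between the passages, with Dhodh 1.07 and Gpd2 0.37 higher at passage 24 than at passage 4 (adjusted p = 2.20e-05 and 0.00141).

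For the TCA cycle and pyruvate oxidation, 18 genes were tested. At passage 24 against cEpi 12 were higher and 2 lower, at passage 4 against cEpi 9 and 1, and in cEpi against ES 2 and 10. With median scaling these were 6 and 2, 4 and 2, and 7 and 3, and without further normalisation 5 and 2, 4 and 2, and 8 and 2, so the cEpi to ES split turned, while the list's median stood 0.38, 0.40 and -0.42 from that of all probes, and 0.38, 0.43 and -0.40 under the other scalings. Pdk1 and Pdk4, kinases that switch off pyruvate dehydrogenase, were low in cEpi: Pdk1 had 17.70, 17.66 and 17.68 at passage 24, 16.80, 16.82 and 16.89 at passage 4, 15.81, 15.77 and 15.73 in cEpi, and 17.14, 17.27 and 17.36 in ES. The 4 groups did not overlap. Pdk1 fell by 1.49 in cEpi against ES (log2 -1.49, adjusted p = 5.42e-08) and was 1.91 higher at passage 24 than in cEpi (adjusted p = 6.92e-09), and the Pdk4 changes were -1.87 and 2.05 (adjusted p = 1.12e-06 and 4.98e-07). Pdha1, the catalytic subunit these kinases act on, was 1.11 higher at passage 4 than in cEpi (adjusted p = 1.35e-07). Idh2, the NADP-linked mitochondrial isocitrate dehydrogenase, was higher than in ES by 2.72 at passage 24, 2.55 at passage 4 and 2.03 in cEpi (adjusted p = 2.62e-06, 6.21e-06 and 1.44e-05). Its ES values were 11.97, 10.97 and 11.80, with 2 of 3 arrays detected, so the size of these changes is uncertain.

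Among 17 tested genes of mitochondrial biogenesis, 8 were higher and 5 lower at passage 24 than in cEpi, and 7 and 4 at passage 4 than in cEpi. Both splits turned with the scaling, to 5 and 6 and to 4 and 5 with median scaling, and to 3 and 6 and to 3 and 7 without further normalisation. Gabpa, an ETS factor known to act on respiratory genes, rose by 1.60 at passage 24 and 1.20 at passage 4 over cEpi (adjusted p = 1.26e-07 and 1.76e-06), and Dnm1l, which drives mitochondrial fission, by 1.61 and 1.30 (adjusted p = 5.52e-07 and 4.46e-06). In cEpi against ES 2 genes were higher and 6 lower, which became 9 and 1 with median scaling and 11 and 0 without further normalisation, with Tfb1m, a mitochondrial ribosomal RNA methyltransferase, at -1.21 (adjusted p = 1.03e-06). Of 23 assembly factors 8 were higher and 9 lower in cEpi against ES, 6 and 5 at passage 4 against cEpi, and 10 and 5 at passage 24 against cEpi. With median scaling these were 16 and 2, 2 and 9, and 8 and 6, and without further normalisation 16 and 1, 1 and 13, and 2 and 11. Ecsit, an assembly factor of complex I, changed by -1.92 in cEpi against ES and by 2.03 at passage 24 against cEpi (adjusted p = 2.85e-07 and 1.50e-07). Of 5 tested coenzyme Q genes, 2 were higher and 1 lower in cEpi against ES, 0 and 2 at passage 4 against cEpi, and 2 and 1 at passage 24 against cEpi. Coq10b fell at passage 24 and passage 4 against cEpi (log2 -0.92 and -1.01, adjusted p = 5.11e-06 and 4.43e-06). The genes higher at passage 24 than in cEpi were Coq6 (mean 13.04 against 12.32) and Coq9 (13.80 against 13.52).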

How the data were processed

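Total RNA of 12 mouse cell samples was labelled as digoxigenin cRNA and hybridised to 1-colour Applied Biosystems arrays, per the labels' protocols. The authors deposited a signal intensity per probe, a signal-to-noise score and a quality code, per the file headers, and a table of quantile-normalised log2 values, which the authors made in a way not given in the sources used here. That log2 column equals the series' value table and was tested. In the files of cEpi and passage 4 the score and quality code headers are exchanged, and columns were read by their values. No member value carried a quality code of 5000 or more.

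Groups came from the labels. Probes with a score of 3 or more on all 3 arrays of at least 1 group were tested (15235), in 1 limma fit of the 12 arrays (limma 3.58.1, R 4.3.3, 8 residual degrees of freedom, two-sided, no block), with Benjamini-Hochberg adjustment over all tested probes and a threshold of 0.05. The code was tested on simulated data. Tables and figures used Python 3.11.15, pandas 2.3.3 and matplotlib 3.10.9. Probes were named from the platform annotation, and all 67 members matched RefSeq.

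Genes named with values were the 5 largest called rises and falls per comparison, complex II with Cyc1, Ndufb8, the isoform families, genes whose probes disagree, and up to 2 rises and falls per list. For each other list gene the brightest probe was used. Nrf1, Ndufs8, Uqcr11 and Ndufa8 were named outside this rule after their values were seen. Ndufaf1 and Ndufs5-ps were also named outside it. Members and lists were chosen with earlier results of these data known. Alternatives were median scaling of the intensity, its log2 without further normalisation, other detection filters, quality weights, fits of the compared groups, a replicate block, 1 probe a gene, subunits only, and leaving out arrays. The number of arrays limits the precision.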

Additional observations from a re-analysis of the deposited data

How the results depend on the processing

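The scaling moved the counts of called members most. With median scaling, lower calls were 4 in cEpi against ES, 3 at passage 4 and 8 at passage 24 against ES (where 41 were higher), 14 at passage 4 against cEpi (6 higher), and 7 of 11 calls at passage 24 against passage 4, with 9 higher at passage 24 against cEpi. Without further normalisation, lower calls were 3 in cEpi, 3 at passage 4 and 8 at passage 24 against ES, 29 at passage 4 and 30 at passage 24 against cEpi (3 and 5 higher), and 5 of 8 calls between the passages (3 higher). Without the detection filter there were 15 calls at passage 4 against cEpi (14 higher, 1 lower), 22 at passage 24 against cEpi (10 lower) and 9 between the passages (2 higher, 7 lower). For passage 4 against cEpi, lower calls were 15 in the fit of these groups alone and 14 of 44 calls with array quality weights. Group quality weights, chosen after seeing the data, also gave 14 of 44. Between the passages there were 34 calls (28 lower) in the fit of these groups, 40 (31 lower) with array quality weights and 35 (27 lower) with group quality weights. The cause of these moves was not tested.

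Leaving out 1 array gave 21 to 44 calls (2 to 15 lower) at passage 4 against cEpi, 9 to 17 lower at passage 4 against ES, 14 to 23 lower at passage 24 against ES, and 11 to 37 calls (2 to 8 higher, 8 to 29 lower) between the passages. The highest of each came without ES replicate 3. Lower calls at passage 4 against cEpi were 2 or 3 without any passage 4 array or without cEpi replicate 1 or 3. Calls between the passages were 11 to 13 without any passage 4 array or without passage 24 replicate 1 or 3, and lower calls were 10 without passage 24 replicate 2. Probes detected on all 12 arrays, 1 probe a gene, subunits only, leaving out Sdhb and Ndufb8, and leaving out values with high quality codes moved no count by over 1.5 times.

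Of 244 named gene changes, 146 kept direction and call in every setting, 97 lost the call in at least 1 and 16 turned in at least 1. In cEpi against ES, median scaling and no further normalisation gave 0.05 and 0.18 for Sdhd, 0.21 and 0.34 for Ndufv1, 0.22 and 0.35 for Uqcrfs1, and 0.38 and 0.51 for Coq4. No further normalisation alone turned Atp5pb (0.11), Cox5a (0.09) and Polg2 (0.06). At passage 4 against cEpi, Ndufaf7 became -0.06 with median scaling and -0.26 without further normalisation, under which Ndufa1 became -0.05, Sdhc -0.06, Ndufa10 -0.06, Sdha -0.03 and Ndufv1 -0.10. At passage 24, Cyc1 became -0.005 and Coq9 -0.16 against cEpi without further normalisation, and Coq4 became 0.13 and 0.07 against ES under the 2 scalings.

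No pairing of arrays by replicate number was seen: over 18 same-numbered pairs the correlation of deviations ran from -0.0346 to 0.0373. In 5 of 18 checks (each number in each comparison) an array correlated best with its own number in the other group. Whether same-numbered arrays share a line is not given, and these correlations cannot decide it, since the deviations may be technical. With the replicate block, calls were 45 in cEpi against ES, 24 at passage 4 and 36 at passage 24 against cEpi, 41 at passage 4 and 39 at passage 24 against ES, and 17 between the passages.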
